A study of Mus musculus with 4 samples.

Results

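The Fos, Jun and Egr immediate-early transcription factors were followed in Langerhans cells, which sample antigen in the epidermis. The set held 10 genes, picked by name and all found at 1 locus each among 24441 gene symbols: Fos, Fosb, Fosl1, Fosl2, Jun, Junb, Jund, Egr1, Egr2 and Egr3. All 10 had a mean of at least 1 FPKM (fragments counted on a transcript, divided by its length and by the library's mapped fragments), as did 10910 symbols in all, which were tested. RNA was sequenced from cells sorted out of the epidermis of mice at 4 weeks of age. Tfam cKO mice carried CD11c-Cre with floxed Tfam, so that the gene of a mitochondrial DNA-binding transcription factor is targeted in cells that use the CD11c promoter, and wild-type mice (WT) were set against them. There were 2 libraries per genotype, called 1 and 2 as in the labels, which do not give the sort markers or whether WT mice carried floxed alleles. The labels do not say how many mice stand behind a library or whether libraries were made on separate days, so a p-value here reflects the spread among these libraries alone, in which sex, mouse and handling can all differ.

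Fos and Jun proteins bind DNA as pairs through leucine zippers and together form the factor AP-1, while Egr proteins bind GC-rich sites through zinc fingers and act alone. Most of these genes are switched on within minutes by mitogens, stress or cell handling, through MAP kinases that act on factors already sitting at their promoters, and their mRNAs are short-lived. Enzymatic release of cells from tissue is itself a known trigger, so a level in sorted skin cells can hold both the state in the skin and the response to isolation.

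Promoter sequences are shown for Fos, Fosb, Jun and Junb, the members of highest level, and for Egr2, the only Egr gene here with a printable entry. They are RefSeq windows on GRCm38.p6, which run from 250 bases before to 50 bases after an annotated start, written 5′ to 3′ on the gene's strand. Capitals mark matches, on either strand, to TGANTCA (the AP-1 site), TGACGTCA (the cAMP response element), its core TGACG, TGACATCA (a variant AP-1 site known from the Jun promoter), GCGNGGGCG (the Egr site), TATAAA and the CArG box of serum response factor. TGACG is contained in TGACGTCA. The Fos window is chr12:85473640-85473939 (plus strand), that of Fosb chr7:19309996-19310295 (minus strand), that of Jun chr4:95052173-95052472 (minus strand), that of Junb chr8:84978699-84978998 (minus strand) and that of Egr2, of 5 windows for that gene, chr10:67537619-67537918 (plus strand).
Fos: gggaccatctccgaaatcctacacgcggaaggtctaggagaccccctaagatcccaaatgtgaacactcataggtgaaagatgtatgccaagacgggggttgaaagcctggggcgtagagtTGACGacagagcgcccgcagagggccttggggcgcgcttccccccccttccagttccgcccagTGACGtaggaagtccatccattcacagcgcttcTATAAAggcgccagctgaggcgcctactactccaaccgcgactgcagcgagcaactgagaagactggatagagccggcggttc
Fosb: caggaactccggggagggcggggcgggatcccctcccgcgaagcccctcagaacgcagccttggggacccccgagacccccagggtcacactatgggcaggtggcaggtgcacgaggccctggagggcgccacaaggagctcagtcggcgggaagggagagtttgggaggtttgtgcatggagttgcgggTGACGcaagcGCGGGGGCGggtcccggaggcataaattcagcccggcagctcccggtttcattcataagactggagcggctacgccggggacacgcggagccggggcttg
Jun: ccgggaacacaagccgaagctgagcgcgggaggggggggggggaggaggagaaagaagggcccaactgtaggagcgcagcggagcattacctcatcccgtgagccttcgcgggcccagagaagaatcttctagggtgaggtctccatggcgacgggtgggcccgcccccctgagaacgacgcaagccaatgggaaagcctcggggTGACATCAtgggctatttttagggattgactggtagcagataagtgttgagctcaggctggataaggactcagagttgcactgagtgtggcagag
Junb: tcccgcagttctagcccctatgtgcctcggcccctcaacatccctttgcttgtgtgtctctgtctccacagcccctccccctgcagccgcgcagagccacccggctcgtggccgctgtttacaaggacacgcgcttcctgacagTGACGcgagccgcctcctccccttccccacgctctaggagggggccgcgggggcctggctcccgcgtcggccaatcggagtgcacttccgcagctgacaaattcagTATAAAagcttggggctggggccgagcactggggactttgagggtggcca
Egr2: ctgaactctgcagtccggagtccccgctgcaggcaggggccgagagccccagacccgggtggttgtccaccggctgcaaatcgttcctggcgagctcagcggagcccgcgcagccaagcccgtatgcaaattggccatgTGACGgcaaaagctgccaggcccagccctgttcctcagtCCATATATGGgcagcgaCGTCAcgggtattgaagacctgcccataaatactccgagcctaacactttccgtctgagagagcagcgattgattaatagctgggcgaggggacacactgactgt
The Jun window held TGACATCA, as do 3.62% of 32851 mouse promoter windows. The Egr2 window held a CArG box, present in 1.63% of windows, and the Fosb window an Egr site, present in 5.55%. TGACG stood in the Fos, Fosb, Junb and Egr2 windows and in 20.8% of all windows, and TATAAA in those of Fos and Junb and in 13.6% of all. None of the 5 held TGANTCA, which 7.81% of windows hold, or TGACGTCA, which 1.79% hold. These matches are descriptions of letters, and the serum response element for which Fos is known lies further upstream than its window. Of the 10 members 7 had a window, and Fosl1, Egr1 and Egr3 are named only.

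The libraries were checked first. Tfam was listed at 1.65 and 1.53 FPKM in Tfam cKO 1 and 2, against 3.17 and 1.61 FPKM in WT 1 and 2, so the library labelled WT 2 was no higher than Tfam cKO 1. A value for the whole gene can include exons outside the deleted part and does not settle the genotype, so every direction below rests on the labels, and values without WT 2 are given where they matter. Cd207, which encodes langerin, was at 1374 to 2098 FPKM over the 4 libraries and Cd74, the class II invariant chain, at 9264 to 12340 FPKM. Of the other Langerhans cell markers listed, Epcam, H2-Aa, Csf1r and Itgax had at least 40.97 FPKM in each library. Cd1d1 had 0.046 to 0.21 FPKM. Keratinocyte markers were also high. The 8 listed summed to 13333 and 11712 FPKM in Tfam cKO and 13216 and 8954 FPKM in WT, and none was at 0. The 5 T cell markers in the tables summed to 160 and 224 FPKM in Tfam cKO and to 227 and 245 FPKM in WT. The macrophage markers Cd163 and Folr2 and the mast cell marker Cpa3 were at 0 in all 4 libraries. Others on the same lists were not. The macrophage markers Adgre1 and Mrc1 had 76.8 to 97.8 and 0.029 to 0.13 FPKM, and the mast cell marker Kit had 0.52 to 1.32 FPKM. The part of other cells in the levels below was not tested. The Y-linked gene Ddx3y was at 0 and 9.34 FPKM in Tfam cKO 1 and 2 and at 0 and 28.2 FPKM in WT 1 and 2, so the libraries of a genotype did not come from the same mice. Xist, the RNA of the inactive X chromosome, was at 39.0 and 45.6 FPKM in Tfam cKO and at 64.5 and 5.38 FPKM in WT, so the libraries numbered 2 were not alike in it. Tfam cKO 2 held both Y-linked transcripts and Xist above the level of Tfam cKO 1, so it can hold RNA of mice of both sexes, which was not tested. Read totals are not recorded. The width of Cufflinks' 95% interval corresponds to between 523 and 71243 effective fragments behind each value of a member. These are not read counts. In Tfam cKO 1, Fosb at 1009 FPKM had 3666 and Egr1 at 533 FPKM had 17649. The interval covers error within a library, not the spread between libraries.

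Together the 10 genes took 1.80% and 1.55% of the total FPKM in the Tfam cKO libraries, against 1.43% and 2.09% in the WT libraries. In share the WT libraries were thus the lowest and the highest of the 4, and the Tfam cKO libraries lay between them. In summed FPKM, Tfam cKO 1 was the highest, at 7138 and 5825 FPKM in Tfam cKO and 5276 and 7086 FPKM in WT. The difference of the means was then 300 FPKM, with Tfam cKO higher (two-sided exact permutation test, p = 0.667). The mean share was 1.68 ± 0.18% in Tfam cKO and 1.76 ± 0.47% in WT (SD, n = 2 each), a difference of −0.082 percentage points (two-sided exact permutation test, p = 1, where 2 against 2 libraries cannot go below 0.333). The direction thus depended on the quantity, and in share it also depended on single libraries. The difference in share was 0.25 percentage points without WT 2 and 0.045 without Tfam cKO 2. Without WT 1 it was −0.41 and without Tfam cKO 1 −0.21. In bulk RNA, fewer cells that use a gene and less of its RNA per cell cannot be told apart.

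By level the members fell into tiers that were the same in all 4 libraries. Junb, Jun, Fos and Fosb ranged from 813 to 1643 FPKM over the libraries, and their ranges overlapped one another. Fos ranked between 21 and 48 among all symbols. Jund and Egr1 followed at 343 to 705 and 381 to 533 FPKM, also overlapping. Fosl1, at 149 to 287 FPKM, and Fosl2, at 116 to 175 FPKM, came next. Egr3, at 18.3 to 36.1 FPKM, and Egr2, at 18.3 to 31.9 FPKM, stood lowest and could not be ordered. No range of one tier reached into the next.

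**Figure D1:**
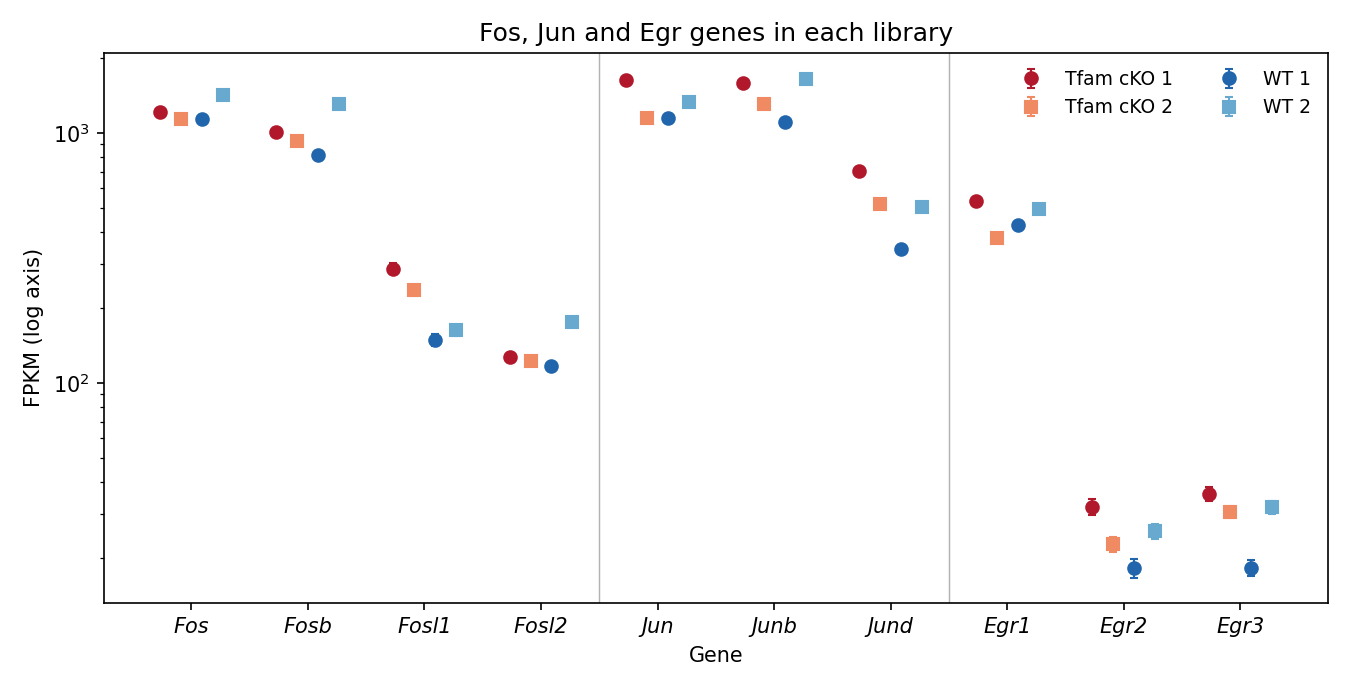
FPKM of each of the 10 genes in each library (log axis), with Tfam cKO 1 and 2 to the left of WT 1 and 2 within a gene and bars for Cufflinks' 95% interval, which is often smaller than the symbol. Fosl1, at 287 and 235 FPKM in Tfam cKO and 149 and 162 FPKM in WT, is the clearest separation of the groups, and WT 2 is above WT 1 for every gene.

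No member passed the test between genotypes, where 0.0183% of tested symbols did, 2 of 10910, both higher in Tfam cKO (limma, Benjamini-Hochberg adjusted p below 0.05). At an unadjusted p below 0.05 there was 1 member, Fosl1, and 677 symbols in all. The groups did not overlap, with Tfam cKO higher, for 2 members, Fosl1 and Jund, where this held for 25.4% of tested symbols. With Tfam cKO lower they were separate for 0 members, where this held for 9.75%. The median log2 fold change of the 10, on the log2(FPKM + 1) scale, was 0.12, against 0.07 for all tested symbols. For the 522 tested symbols of mean at least 100 FPKM it was also 0.12. Without WT 2 the members' median was 0.32, against 0.01 for all symbols, and without WT 1 it was −0.05, against 0.13. Without Tfam cKO 1 it was −0.07, against 0.07, and without Tfam cKO 2 it was 0.31, against 0.08. Rescaling the libraries to equal totals moved the median of all symbols to −0.04 and that of the members to −0.0045. After quantile normalization the medians were −0.0086 for all symbols and −0.06 for the members. A test that misses the threshold with 2 libraries a group does not show that levels were equal.

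Fosl1 encodes FRA-1, a FOS relative without the transactivation domain of FOS that rises later and lasts longer than FOS after a stimulus. It had 287 and 235 FPKM in Tfam cKO 1 and 2, against 149 and 162 FPKM in WT 1 and 2. The groups did not overlap, with Cufflinks' intervals of 272 to 301 and 223 to 246 FPKM in Tfam cKO and 141 to 158 and 154 to 171 FPKM in WT. The means were 261 ± 36.9 FPKM in Tfam cKO and 156 ± 9.17 FPKM in WT (SD, n = 2 each), a 1.67-fold ratio, with a log2 fold change of 0.73 with a standard error of 0.20 (limma unadjusted p = 0.00567, adjusted p = 0.549). Its absolute fold change exceeded that of 98.6% of tested symbols. Without WT 2 the log2 fold change was 0.79 (limma adjusted p = 0.305, with a range of 0.0525 to 0.9999 over the alternatives). The log2 difference was 0.94 between the libraries numbered 1 and 0.53 between those numbered 2. The fold change was 0.60 after quantile normalization and 0.61 at equal totals, and as a share of total FPKM Fosl1 had 0.0725% and 0.0624% in Tfam cKO and 0.0403% and 0.0479% in WT. That separation in shares held for 14.3% of tested symbols in the same direction, and Fosl1 was the only member among them. In the files' coordinates Fosl1 (chr19:5447698-5455938) overlaps the gene Ccdc85b, and since the labels do not state whether strand was kept, reads of the shared stretch cannot be assigned. Ccdc85b had 33.7 and 37.2 FPKM in Tfam cKO and 22.1 and 31.6 FPKM in WT. Fosl1 is also known from keratinocytes. The keratinocyte sums were 13333 and 11712 FPKM in Tfam cKO and 13216 and 8954 FPKM in WT. Among the markers Sfn was separate as Fosl1 was, at 2231 and 1833 FPKM in Tfam cKO and 1593 and 1353 FPKM in WT. Dsp was separate in the same direction, at 142 and 141 FPKM in Tfam cKO and 139 and 117 FPKM in WT. Krt1 was separate with Tfam cKO lower, at 143 and 184 FPKM in Tfam cKO and 243 and 186 FPKM in WT. The other markers overlapped. The part of keratinocyte RNA in the level of Fosl1 was not tested.

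The other Fos genes had overlapping groups. Fos, the prototype of the family (chr12:86814851-86818219), had 1210 and 1132 FPKM in Tfam cKO and 1139 and 1414 FPKM in WT. WT 2 stood apart from the other 3 libraries, and the log2 fold change was −0.12 with a standard error of 0.23 (limma adjusted p = 0.975). As a share of total FPKM, Fos had 0.306% and 0.301% in Tfam cKO and 0.308% and 0.417% in WT, so both Tfam cKO shares were below both WT shares, but Tfam cKO 1 and WT 1 were nearly equal. Such separation held for 19.8% of tested symbols. Fosb, whose gene also gives the truncated DeltaFosB form (chr7:19888045-19895394), had 1009 and 931 FPKM in Tfam cKO and 813 and 1309 FPKM in WT, which enclosed the Tfam cKO values. Fosl2 encodes FRA-2 (chr5:32438845-32460212) and had 127 and 122 FPKM in Tfam cKO and 116 and 175 FPKM in WT, the same arrangement. The log2 fold changes were −0.09 (SE 0.27) for Fosb and −0.19 (SE 0.23) for Fosl2, with limma adjusted p of 0.986 and 0.954.

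Jun genes code for the partners that FOS proteins need to bind DNA. Jun (chr4:94715727-94718913) had 1622 and 1149 FPKM in Tfam cKO and 1150 and 1325 FPKM in WT, with Tfam cKO 2 and WT 1 nearly equal. Junb, a partner that can restrain JUN activity (chr8:87500808-87502647), had 1578 and 1304 FPKM in Tfam cKO and 1100 and 1643 FPKM in WT. Again WT held the lowest and the highest value. The log2 fold changes were 0.14 (SE 0.25, limma adjusted p = 0.966) for Jun and 0.09 (SE 0.27, limma adjusted p = 0.982) for Junb. That of Jun was −0.03 after quantile normalization, and that of Junb was −0.09 then and −0.03 at equal totals.

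Jund (chr8:73221638-73224515), the Jun gene with the steadiest expression in resting cells, had 705 and 518 FPKM in Tfam cKO and 343 and 504 FPKM in WT. The groups were separate by the small step between Tfam cKO 2 and WT 2, which had Cufflinks' intervals of 512 to 524 and 497 to 510 FPKM. The log2 fold change was 0.54 with a standard error of 0.26 (limma adjusted p = 0.846). Without WT 2 it was 0.82 and without WT 1 0.26. It was 1.04 between the libraries numbered 1 and 0.04 between those numbered 2. As a share of total FPKM the groups overlapped, at 0.178% and 0.138% in Tfam cKO and 0.0927% and 0.149% in WT.

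Egr1, a zinc finger factor induced by growth signals (chr18:35020861-35024610), had 533 and 381 FPKM in Tfam cKO and 429 and 498 FPKM in WT. Here the Tfam cKO libraries held the highest and the lowest value, and the log2 fold change was −0.04 with a standard error of 0.24 (limma adjusted p = 0.996). Egr2, known for its part in myelination and lymphocyte restraint (chr10:67000617-67004936), had 31.9 and 22.6 FPKM in Tfam cKO and 18.3 and 25.5 FPKM in WT. Egr3, a related early factor (chr14:70477252-70482420), had 36.1 and 30.5 FPKM in Tfam cKO and 18.3 and 31.8 FPKM in WT. In both, WT 1 was the lowest library, and the log2 fold changes were 0.30 (SE 0.23) and 0.44 (SE 0.25), with limma adjusted p of 0.908 and 0.872. Single libraries set these values. Without WT 2 they were 0.53 for Egr2 and 0.83 for Egr3, without WT 1 0.073 and 0.058, and without Tfam cKO 1 0.065 and 0.32.

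The clearest pattern over the 10 genes lay between libraries of the same genotype. All 10 were higher in WT 2 than in WT 1, where that held for 37.3% of tested symbols, and all 10 were lower in Tfam cKO 2 than in Tfam cKO 1, where that held for 52.4%. Both together held for 10 of 10 members and for 16.7% of tested symbols. The median log2 difference was 0.51 for WT 2 minus WT 1, against −0.10 for all tested symbols, and −0.28 for Tfam cKO 2 minus Tfam cKO 1, against −0.01. Within WT the higher library exceeded the lower by 1.09-fold for Fosl1 to 1.74-fold for Egr3, and within Tfam cKO by 1.04-fold for Fosl2 to 1.41-fold for Jun. Cufflinks' intervals of the 2 libraries were separate for 9 of 10 members in each genotype, so those differences were larger than the error that the intervals cover. Interval separation was not counted for other symbols, so this count does not set the members apart.

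**Figure D2:**
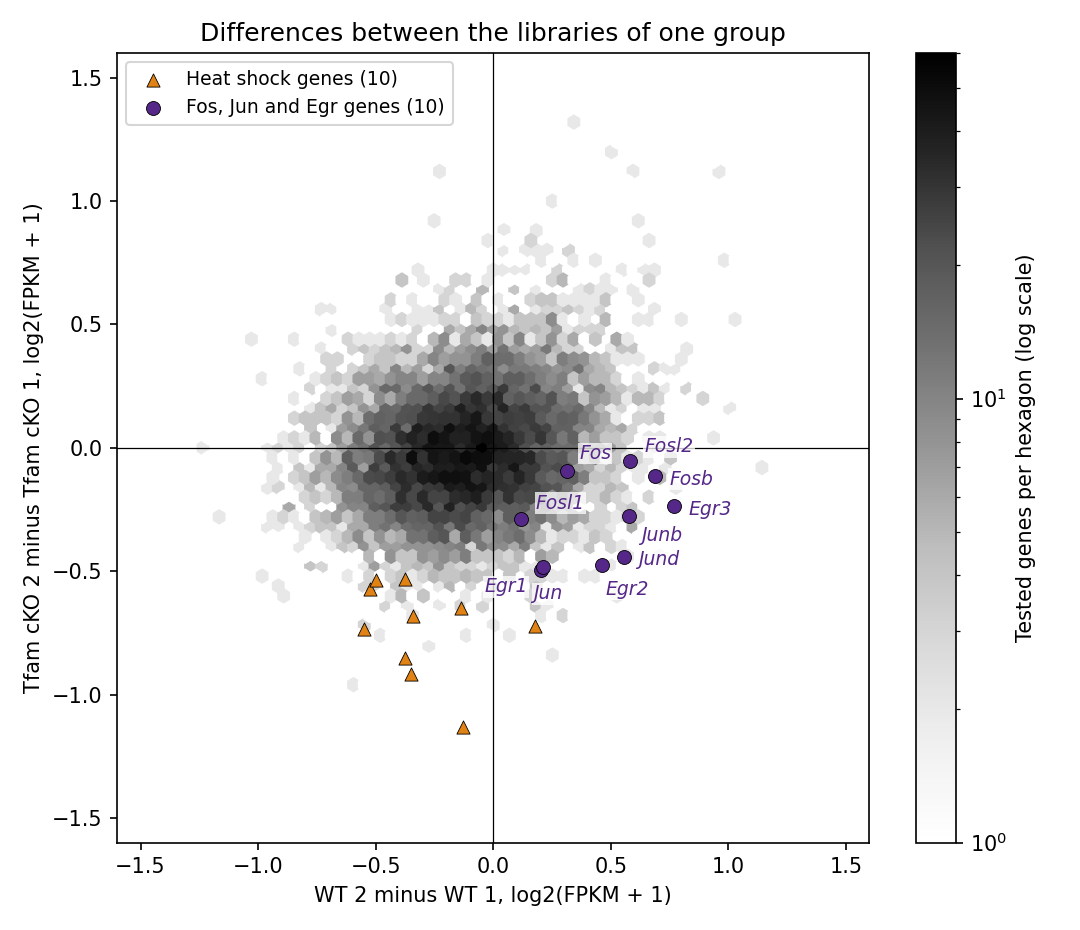
Log2(FPKM + 1) of WT 2 minus WT 1 (horizontal) and of Tfam cKO 2 minus Tfam cKO 1 (vertical) for the tested genes, as hexagons shaded by number, with the Fos, Jun and Egr genes as circles and 10 heat shock genes as triangles; 57 of 10910 genes lie beyond the axes. All 10 Fos, Jun and Egr genes lie in the lower right, where 16.7% of tested genes lie, and 9 of the 10 heat shock genes are in the lower left.

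For 8 of 10 members the comparison of genotypes had opposite signs in the libraries numbered 1 and 2. It uses the same values as the differences within a genotype, so it is not a separate result. Tfam cKO 1 was above WT 1 for 10 of 10 members, where that held for 52.7% of tested symbols, and Tfam cKO 2 was below WT 2 for 8 of 10, where that held for 30.9%. Both held for 8 members and for 14.8% of tested symbols. The exceptions were Fosl1 and Jund. The median log2 difference was 0.51 between the libraries numbered 1 and −0.26 between those numbered 2, against 0.02 and 0.13 for all tested symbols. The numbers do not say that libraries were handled together.

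Genes outside the set were ranked by likeness to the sum of the 10. Among 2670 other genes of at least 20 FPKM, the centred log2 profile over the 4 libraries that lay nearest to that of the summed members was that of Tob2, an antiproliferative gene of the BTG family, with a root mean square difference of 0.027, where the median of these genes was 0.26. Next came Pnpla2, which encodes adipose triglyceride lipase (0.033), the immediate-early gene Ier2 (0.033), Pxdc1 (0.034) and Zfp36l2, an RNA-binding factor that destabilizes mRNAs (0.041). Ier2 had 289 and 234 FPKM in Tfam cKO and 202 and 277 FPKM in WT.

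Heat shock genes, which cell dissociation also induces, had another order. The 10 listed took 4.98% and 3.04% of total FPKM in Tfam cKO and 4.07% and 3.44% in WT. All 10 were lower in Tfam cKO 2 than in Tfam cKO 1, as the Fos, Jun and Egr genes were, but 1 of 10 was higher in WT 2 than in WT 1. Hspa1b, an inducible chaperone, had 6866 and 3639 FPKM in Tfam cKO and 4841 and 3798 FPKM in WT, and its near-identical neighbour Hspa1a had 5886 and 3260 FPKM in Tfam cKO and 4264 and 3285 FPKM in WT, with reads that the counting could divide between them. The part of dissociation in the levels of the Fos, Jun and Egr genes was not tested.

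The make-up of the set was compared as well. As a share of the summed FPKM of the 10 genes, a quantity that scaling of a library does not change, Fosl1 made up 4.02% and 4.03% in Tfam cKO and 2.83% and 2.29% in WT. Jund made up 9.87% and 8.90% in Tfam cKO and 6.49% and 7.11% in WT. Both were separate, with Tfam cKO above. Fos made up 16.9% and 19.4% in Tfam cKO and 21.6% and 19.96% in WT, and Fosl2 1.78% and 2.10% in Tfam cKO and 2.21% and 2.46% in WT, with Tfam cKO below. Egr2 made up 0.447% and 0.389% in Tfam cKO and 0.346% and 0.3601% in WT, and Egr3 0.506% and 0.523% in Tfam cKO and 0.346% and 0.449% in WT, again with Tfam cKO above. The shares of Fosb, Jun, Junb and Egr1 overlapped.

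**Figure D3:**
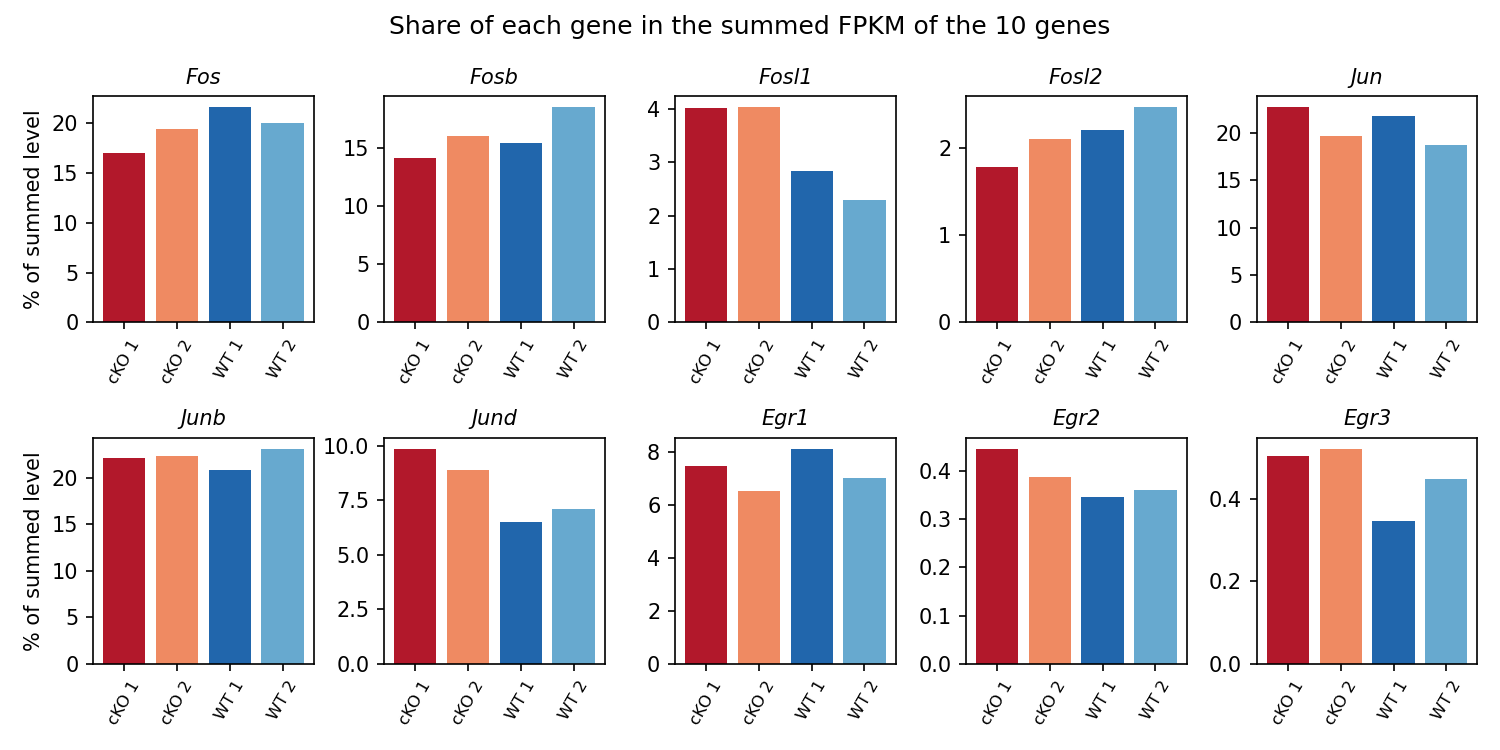
Share of each gene in the summed FPKM of the 10 genes (percent, each panel from 0 with its own scale), as bars for Tfam cKO 1 and 2 left of WT 1 and 2. Fosl1 is near 4% in both Tfam cKO libraries and at 2.83% and 2.29% in WT, while the bars of Jun, Junb, Fosb and Egr1 overlap between the groups.

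The ratio of Fos to Fosl1 was 4.22 and 4.82 in Tfam cKO and 7.63 and 8.72 in WT, and that of Fos to Jund was 1.72 and 2.18 in Tfam cKO and 3.32 and 2.81 in WT. Each separates the groups, at the smallest p that 2 against 2 libraries allow in a two-sided exact permutation test, 0.333, and both were picked after the values were seen. Set against the summed level in this way, 8.05% of all tested symbols were separate with Tfam cKO above and 6.81% with Tfam cKO below, against 4 and 2 of the 10 members. The members share the movement of their own sum between libraries, which the other symbols need not, so these percentages are not an equal measure for both.

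Genes around the AP-1 and Egr factors were read from lists of partners, inhibitors, upstream kinases and targets, 110 tested genes in 9 lists with the heat shock genes included. None of them passed the test over all symbols, where 0.0183% did. With the library number as a term in limma, a number that goes with the Y-linked transcripts, 6 of the 110 passed, among them Batf3, Dusp4 and Plaur, where 1.69% of tested symbols did. No Fos, Jun or Egr gene passed in that fit. In the counts that follow, the groups were separate with Tfam cKO higher for 25.4% of all tested symbols and lower for 9.75%, and 677 of 10910 had an unadjusted p below 0.05. Among 12 AP-1 dimer partners 3 had an unadjusted p below 0.05, and the groups were separate for 6, with Tfam cKO higher for 5 and lower for 1. Atf3, a stress-induced partner of JUN, had 1689 and 1595 FPKM in Tfam cKO and 1506 and 1445 FPKM in WT, a level like that of Jun, with separate groups and a log2 fold change of 0.15 with a standard error of 0.22 (limma adjusted p = 0.960), which was −0.06 after quantile normalization. Atf4, a leucine zipper factor of the integrated stress response, had 474 and 458 FPKM in Tfam cKO and 338 and 397 FPKM in WT. Batf3, a JUN partner needed for some dendritic cells, had 3.29 and 3.51 FPKM in Tfam cKO and 1.13 and 1.49 FPKM in WT, with a log2 fold change of 0.93 with a standard error of 0.19 (limma adjusted p = 0.334).

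The other immediate-early genes showed part of the pattern between libraries. Of 28 tested, 21 were higher in WT 2 than in WT 1 and 18 were lower in Tfam cKO 2 than in Tfam cKO 1, against 37.3% and 52.4% of all tested symbols. The groups were separate with Tfam cKO higher for 6 (21.4%) and lower for 1 (3.57%), where this held for 25.4% and 9.75% of all tested symbols. Zfp36, an RNA-binding protein that shortens the life of cytokine mRNAs, had 1661 and 1516 FPKM in Tfam cKO and 1403 and 1742 FPKM in WT. Rgs1, a regulator of G protein signalling, had 848 and 1335 FPKM in Tfam cKO and 1031 and 1453 FPKM in WT. Gadd45g, a stress-response gene, had 98.9 and 105 FPKM in Tfam cKO and 62.3 and 82.2 FPKM in WT, with a log2 fold change of 0.51 with a standard error of 0.20 (limma adjusted p = 0.757). The Egr co-repressor genes Nab1, at 27.5 and 26.7 FPKM in Tfam cKO and 30.7 and 22.4 FPKM in WT, and Nab2, at 31.3 and 23.6 FPKM in Tfam cKO and 25.1 and 24.4 FPKM in WT, overlapped between the genotypes.

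Inhibitors of the MAP kinases included Dusp4, which had the largest change among the listed genes on the log2(FPKM + 1) scale. With a pseudocount of 0.1 its log2 fold change was 1.34, near the 1.32 of Batf3. Of 14 phosphatase and Sprouty genes, 5 had an unadjusted p below 0.05, and the groups were separate with Tfam cKO higher for 7 and lower for 1. Dusp4, a nuclear phosphatase of ERK and JNK, had 10.2 and 7.77 FPKM in Tfam cKO and 3.40 and 3.55 FPKM in WT, a log2 fold change of 1.15 with a standard error of 0.18 (limma adjusted p = 0.149). The log2 fold change of Dusp4 was 1.33 without Tfam cKO 2 and 0.97 without Tfam cKO 1. It was 1.175 without WT 2 and 1.13 without WT 1. Over the alternatives its limma adjusted p ranged from 5.4e-05 to 0.856. Dusp1, an early-induced phosphatase of p38 and JNK, had 736 and 684 FPKM in Tfam cKO and 635 and 657 FPKM in WT, with a log2 fold change of 0.14 with a standard error of 0.21 (limma adjusted p = 0.960) that was −0.04 after quantile normalization. Dusp5, a nuclear phosphatase of ERK, had 62.7 and 54.3 FPKM in Tfam cKO and 53.7 and 56.6 FPKM in WT.

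The kinases and promoter-bound factors upstream came next. The median log2 fold change was 0.10 for 10 genes of the ERK cascade, −0.04 for 12 of the JNK and p38 cascades and 0.04 for 12 promoter-bound factors, against 0.07 for all tested symbols. The groups were separate with Tfam cKO higher for 3 and lower for 1 in the ERK cascade, for 4 and 3 in the JNK and p38 cascades and for 3 and 0 among the promoter-bound factors. Mapk3, which encodes ERK1, had 74.8 and 68.6 FPKM in Tfam cKO and 71.0 and 65.0 FPKM in WT. Map2k2, a kinase that activates ERK, had 28.8 and 27.1 FPKM in Tfam cKO and 21.3 and 24.4 FPKM in WT. Map2k3, an activator of p38, had 162 and 148 FPKM in Tfam cKO and 116 and 117 FPKM in WT (log2 fold change 0.40, SE 0.18, limma adjusted p = 0.813). The p38 target kinase gene Mapkapk2 had 82.3 and 66.97 FPKM in Tfam cKO and 61.0 and 61.5 FPKM in WT. Srf, the serum response factor that binds CArG boxes, had 53.9 and 40.6 FPKM in Tfam cKO and 35.5 and 32.0 FPKM in WT (log2 fold change 0.46, SE 0.19, limma adjusted p = 0.8004). Crem, a cAMP response factor, had 47.2 and 50.6 FPKM in Tfam cKO and 69.5 and 42.4 FPKM in WT.

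Of 12 genes known as AP-1 targets, 9 reached the level for testing. The groups were separate with Tfam cKO higher for 5 and lower for 1, and 2 had an unadjusted p below 0.05. Plaur, the urokinase receptor gene, had 102 and 59.8 FPKM in Tfam cKO and 45.1 and 42.3 FPKM in WT, a log2 fold change of 0.83 with a standard error of 0.25 (limma adjusted p = 0.624), and 1.21 without Tfam cKO 2, where the limma adjusted p was 0.0162 (range over the alternatives 0.00811 to 0.9999) in a fit with a lone Tfam cKO library. Hmox1, the haem oxygenase gene, had 203 and 103 FPKM in Tfam cKO and 93.7 and 91.3 FPKM in WT, with Tfam cKO 1 far above the other 3. Vim, an intermediate filament gene, had 2120 and 2239 FPKM in Tfam cKO and 1579 and 2250 FPKM in WT, where the groups overlapped.

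**Figure D4:**
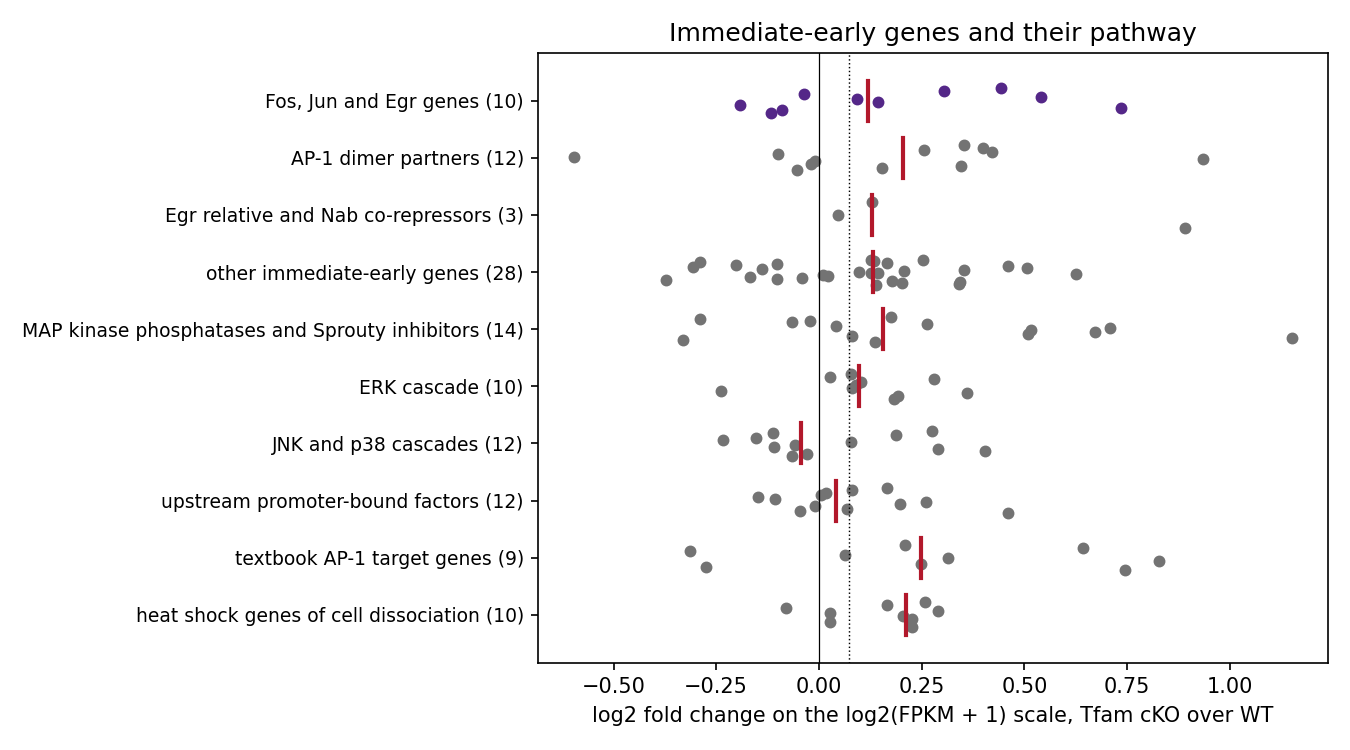
Log2 fold change on the log2(FPKM + 1) scale, Tfam cKO over WT, of each tested gene (points) in the Fos, Jun and Egr set and in 9 lists of related genes, with red bars for list medians, a dotted line for the median of all tested genes and the number of genes in parentheses. Dusp4, at 1.15, is the farthest point, and no point passed the adjusted threshold.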

How the data were processed

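Sorted epidermal Langerhans cells gave total RNA (Trizol) and NEBNext Ultra libraries, as the labels' protocols say. The deposited values are FPKM with a 95% interval, in 1 table of 24994 rows per library with the column layout of Cufflinks per the file headers. CASAVA, Cufflinks and mm10 are named per the submitters' processing notes. No aligner or annotation is given in the sources used here. Of 23922 symbols shared with GENCODE M21 (GRCm38), 11.4% lay at an overlapping position. Most positions thus did not match the named mm10, which is GRCm38. Gene positions are given as in the tables, with the build unresolved. Promoter windows are on GRCm38.p6.

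FPKM of the 301 symbols at several loci were summed. Tfam cKO was compared with WT over 10910 symbols of mean at least 1 FPKM, as log2(FPKM + 1), which understates the changes of low genes. The test was limma 3.58.1 (R 4.3.3) on genotype alone, with variances moderated along the mean level. The p-values were adjusted by Benjamini and Hochberg, at a threshold of 0.05. Its mean estimates were checked on data simulated from its own variances, which cannot show that its p-values hold for these libraries. Effective fragments behind a value were taken from the width of its interval, read as 2 standard errors either side. Members and lists were chosen with earlier results of these data known. Named from each list were genes past the threshold, the 2 of highest level, and the largest change among genes with separate groups, and 1 gene that this names is not reported here. Alternatives were quantile normalization, equal totals (TPM), no filter or one of 5 FPKM, pseudocounts of 0.1 and 5, a variance prior without a trend or estimated robustly, the replicate number as a term, and leaving out each library. Python 3.11.15, scipy 1.17.1 and matplotlib 3.10.9 were used.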

Additional observations from a re-analysis of the deposited data

How the results depend on the processing

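The count of called Fos, Jun and Egr genes was 0 under all 13 alternatives. Of their 130 fold changes 119 kept their direction and 11, in 6 genes, did not. The filters, the variance priors and the replicate term leave a member's fold change as it is, so no reversal was possible there. The 11 reversals came with quantile normalization, equal totals or a library left out. The adjusted p of Fosl1 (limma) ranged from 0.0525, with the replicate block, to 0.9999, and its log2 fold change from 0.59 to 0.88. Over all tested symbols 2 were called, against 0 without a filter, 1 with a filter of 5 FPKM, 1 with a pseudocount of 5, 5 with robust moderation and 184 with the replicate block. With a library left out the count was 16 to 82, where the spread comes from the other group alone. The labels do not say that replicate numbers pair libraries, and deviations of same-numbered libraries correlated at 0.255 over genes with only 2 pairs, although Y-linked transcripts go with the number in both genotypes. With the replicate block the adjusted p (limma) was 0.00734 for Batf3, 5.4e-05 for Dusp4 and 0.00811 for Plaur. The difference in the summed share of the 10 genes ranged from −0.415 to 0.25 percentage points with a library left out.
After quantile normalization the log2 fold change was −0.032 for Jun, −0.090 for Junb, −0.057 for Atf3, −0.070 for Nab1, −0.18 for Zfp36, −0.038 for Dusp1, −0.034 for Dusp5, −0.048 for Mapk3 and −0.034 for Hspa1a. At equal totals it was −0.030 for Junb, −0.075 for Nab1, −0.10 for Zfp36, −0.042 for Dusp5 and −0.045 for Mapk3. Leaving out 1 library at a time gave log2 fold changes of −0.27 to 0.039 for Fos, −0.43 to 0.25 for Fosb, −0.48 to 0.097 for Fosl2, −0.10 to 0.39 for Jun, −0.20 to 0.38 for Junb and −0.28 to 0.21 for Egr1. Among list genes the same gave −0.17 to 0.26 for Nab1, −0.068 to 0.33 for Nab2, −0.13 to 0.18 for Zfp36, −0.53 to 0.13 for Rgs1, −0.022 to 0.18 for Dusp5, −0.50 to 0.20 for Crem, −0.047 to 0.46 for Vim, −0.24 to 0.68 for Hspa1b and −0.20 to 0.65 for Hspa1a. For these results the cause was not tested. With 2 libraries a group, differences within the spread of a genotype could not be resolved.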
